A study of Schizosaccharomyces pombe with 21 samples.

Results

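The loci described here are 96 genes and pseudogenes that lie near the chromosome ends of fission yeast (Schizosaccharomyces pombe). They were taken by name, as every row of the count tables whose systematic identifier begins with SPAC186, SPAC750, SPAC977, SPAC212, SPAC5H10, SPBC1348, SPBCPT2R1, SPCC569 or SPCP20C8. These prefixes are clones of the genome project, and they were chosen with earlier results of these data known. Counts of members set beside shares of all loci therefore describe the data and are no test. The rule on names found 96 of the 6988 counted loci, of which 85 code for protein and 11 are pseudogenes. Poly(A)+ RNA was sequenced from 21 log phase cultures grown at 30 °C, with 3 cultures in each of 7 groups. In ePMGT, a minimal medium with glutamate and thiamine, the groups were asp1-WT and the nonsense mutants asp1-STF6 and asp1-STF9, which truncate the pyrophosphatase domain of the inositol pyrophosphate enzyme Asp1. In YES, a yeast extract medium, they were kcs1-WT and the missense mutants kcs1-R332T, kcs1-L338R and kcs1-E834K of the inositol hexakisphosphate kinase Kcs1. By the sample labels all 7 groups are h+, with the asp1 allele of each STF group, the wild-type one included, linked to hygMX and the kcs1 allele of each kcs1 group linked to kanMX. Each mutant was a single strain. The labels name BS216 as the strain of asp1-WT replicate 1 and AS478 as that of replicates 2 and 3, so this wild-type group alone carries 2 strain labels. The study's strain table, which covers the other strains of these groups, gives them the leu1-32, ura4-D18 and his3-D1 markers and an ade6 allele, and it does not list AS478, whose markers apart from h+ and hygMX are not given in the sources used here.

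The DNA next to fission yeast telomeres is packed in heterochromatin, marked by methylation of histone H3 on lysine 9 by Clr4 and bound by the HP1 protein Swi6. The shelterin protein Taz1 and the RNA interference pathway both help to establish it, and genes inside it are kept at low levels. Silencing at chromosome ends can vary from cell to cell and be inherited through many divisions. The chromosome ends also share long repeats, so that many genes there exist in near-identical copies, among them the telomere-linked RecQ-type helicase genes tlh1 and tlh2.

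Total counts ranged from 19515604 to 35919903 per library, and the 96 loci took between 0.279% and 0.401% of them. A normalized count is the deposited count scaled by the TMM library factor to the geometric mean library of its experiment, and the STF and kcs1 experiments were scaled and fitted separately. The gene ura4, which the ura4-D18 allele removes, had 0 counts in all 21 libraries. Transcripts of asp1 lay between 1726 and 2725 normalized counts in the STF libraries and transcripts of kcs1 between 1851 and 2393 in the kcs1 libraries, so that the altered genes were transcribed in every group, though these counts do not read the mutations.

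Most of these loci were weakly expressed. Of the 96, 8 had 0 counts in all 21 libraries: ayr2 (SPAC977.08, a dehydrogenase gene), SPAC750.07c, SPBC1348.15, SPBC1348.04, SPBC1348.09, SPBCPT2R1.10, SPBCPT2R1.05c and SPBCPT2R1.03. A further set brought to 34 the loci that stayed under 20 normalized counts in every library, against 852 of all 6988 loci. In contrast, 43 loci reached 100 normalized counts in at least 1 library, and 21 did so in all of them. The filter on low counts kept 56 of the 96 for testing in the STF experiment and 52 in the kcs1 experiment, 48 of them in both.

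Levels differed from clone to clone. SPAC5H10, which lies farthest from its chromosome end (140 to 165 annotated genes inward on the left arm of chromosome I), had 10 of 13 loci at 100 or more in every library. Its highest member was SPAC5H10.03, a gene of the phosphoglycerate mutase family, with library values from 19725 to 34951. On SPCC569, on the right arm of chromosome III, 5 of 9 loci reached that level throughout, led by SPCC569.06 at 4544 to 10086. On SPAC977, on the left arm of chromosome I, 6 of 18 did, led by the aldo-keto reductase gene SPAC977.14c at 3241 to 13052. The clones SPAC186, SPAC750, SPAC212, SPBC1348, SPBCPT2R1 and SPCP20C8 held no locus at 100 in every library. SPBC1348, at the left end of chromosome II, had 10 of 14 loci under 20 in all libraries, and its highest member, the transcription factor gene SPBC1348.12, lay between 27.0 and 137. Per kilobase of exon, the mean normalized count in asp1-WT was 30021 for SPAC5H10.03, 3062 for SPAC977.14c and 4492 for SPCC569.06, against 92.6 for SPBC1348.12, 114 for SPAC212.04c and 194 for SPCP20C8.01c, the leading members of 3 weakly expressed clones. The leading members of SPAC186, SPAC750 and SPBCPT2R1 had 1641 (gdt1, SPAC186.05c), 209 (SPAC750.01) and 74.6 (tlh2). SPAC186 thus held a well expressed gene in this wild type.

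**Figure D1:**
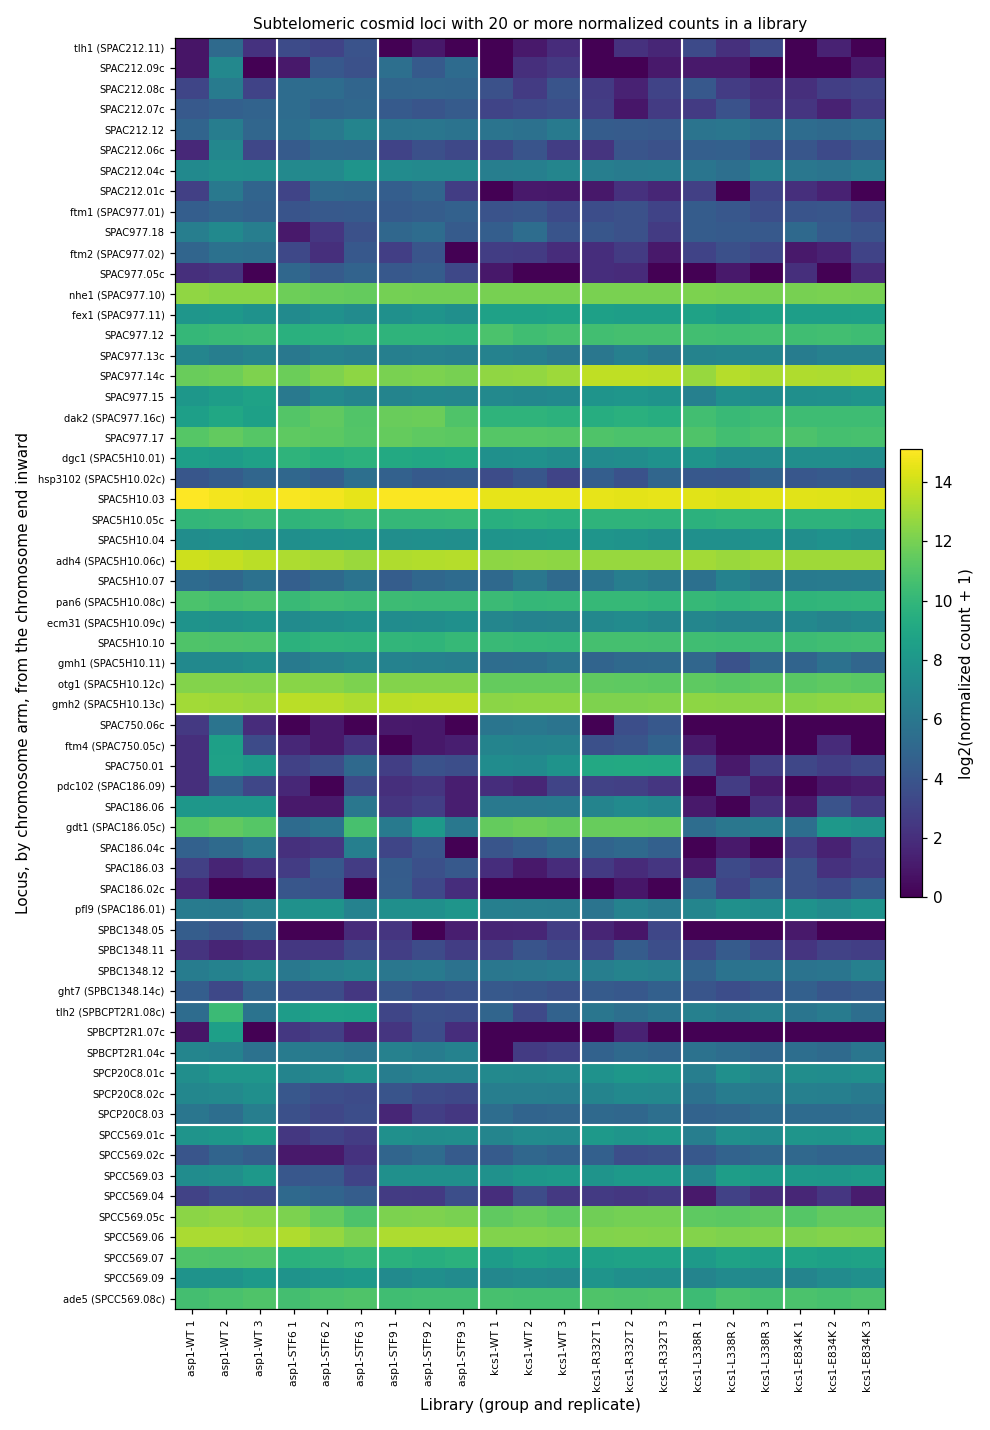
Heat map of log2(normalized count + 1) at the 62 loci with 20 or more normalized counts in at least 1 library (rows, ordered by chromosome arm from the end inward) in the 21 libraries (columns, by group and replicate). White lines separate groups and arms, and single libraries of 1 group differ at several rows of the chromosome I arms and at tlh2.

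Reads cannot always be assigned to 1 copy. By exact matching of 51-base windows, the length of the deposited study's reads, to the ASM294v3 genome, all exon windows were unique at 35 of the 96 loci, fewer than 50% were unique at 53, and none was unique at 21. The genome version behind the counts is ASM294v2, so these shares are a guide only, and no positions or sequences are given. tlh1 (SPAC212.11) shared 99.1% of its windows with tlh2 (SPBCPT2R1.08c). The pseudogenes SPAC212.09c and SPBCPT2R1.07c shared 97.2%. SPAC212.01c, SPAC750.06c, SPBC1348.01, SPBCPT2R1.01c and SPBCPT2R1.04c formed a set with overlaps of 51.2% to 100% for each pair, so counts within such sets are uncertain as to copy. In contrast, every window was unique at gdt1, SPAC186.06, pfl9, dak2, SPAC977.15 and SPCC569.07.

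A locus was called changed at an adjusted p of 0.05 or less by edgeR's quasi-likelihood test with Benjamini-Hochberg adjustment over all tested loci, at least a 2-fold difference, and 100 or more normalized counts on average in the higher group. Against asp1-WT, 2 of the 56 tested members were called higher in asp1-STF6 (2.51% of all 6144 tested loci) and 9 lower (1.76%). In asp1-STF9, 2 were higher (2.10%) and 9 lower (1.87%). The median log2 fold change of the tested members was -0.37 in STF6 and -0.38 in STF9, against 0.05 and -0.03 over all tested loci. DESeq2 gave 2 higher and 8 lower in STF6 and 2 higher and 6 lower in STF9, and its adjusted p was missing for SPAC186.06 in STF6 and for gdt1, SPAC186.06 and tlh2 in STF9, which are the calls it lacks. The comparisons share the asp1-WT libraries, including the library that stands apart at several loci described below. Without asp1-WT replicate 2 the lower calls numbered 7 in each mutant, and without the BS216 library 10 in each.

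Against kcs1-WT fewer members were called. In kcs1-R332T, 1 of 52 tested members was higher (0.525% of all 6093 tested loci) and 1 lower (0.377%). In kcs1-L338R none was called higher (0.460%), with 12 higher at an unadjusted p under 0.05 by edgeR and 0 called by DESeq2, and 3 were lower (0.476%). At edgeR's adjusted p alone, 8 members were higher in L338R (10.6% of all tested loci) and 9 lower (11.7%). No share of all loci is set beside the counts at an unadjusted p, here or below. In kcs1-E834K, 1 was higher (0.673%) and 3 lower (0.443%). DESeq2 gave the same number of calls in each direction in all 3 comparisons. Every call in these comparisons fell on the right arm of chromosome I, where 8 of the 17 members were tested.

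**Figure D2:**
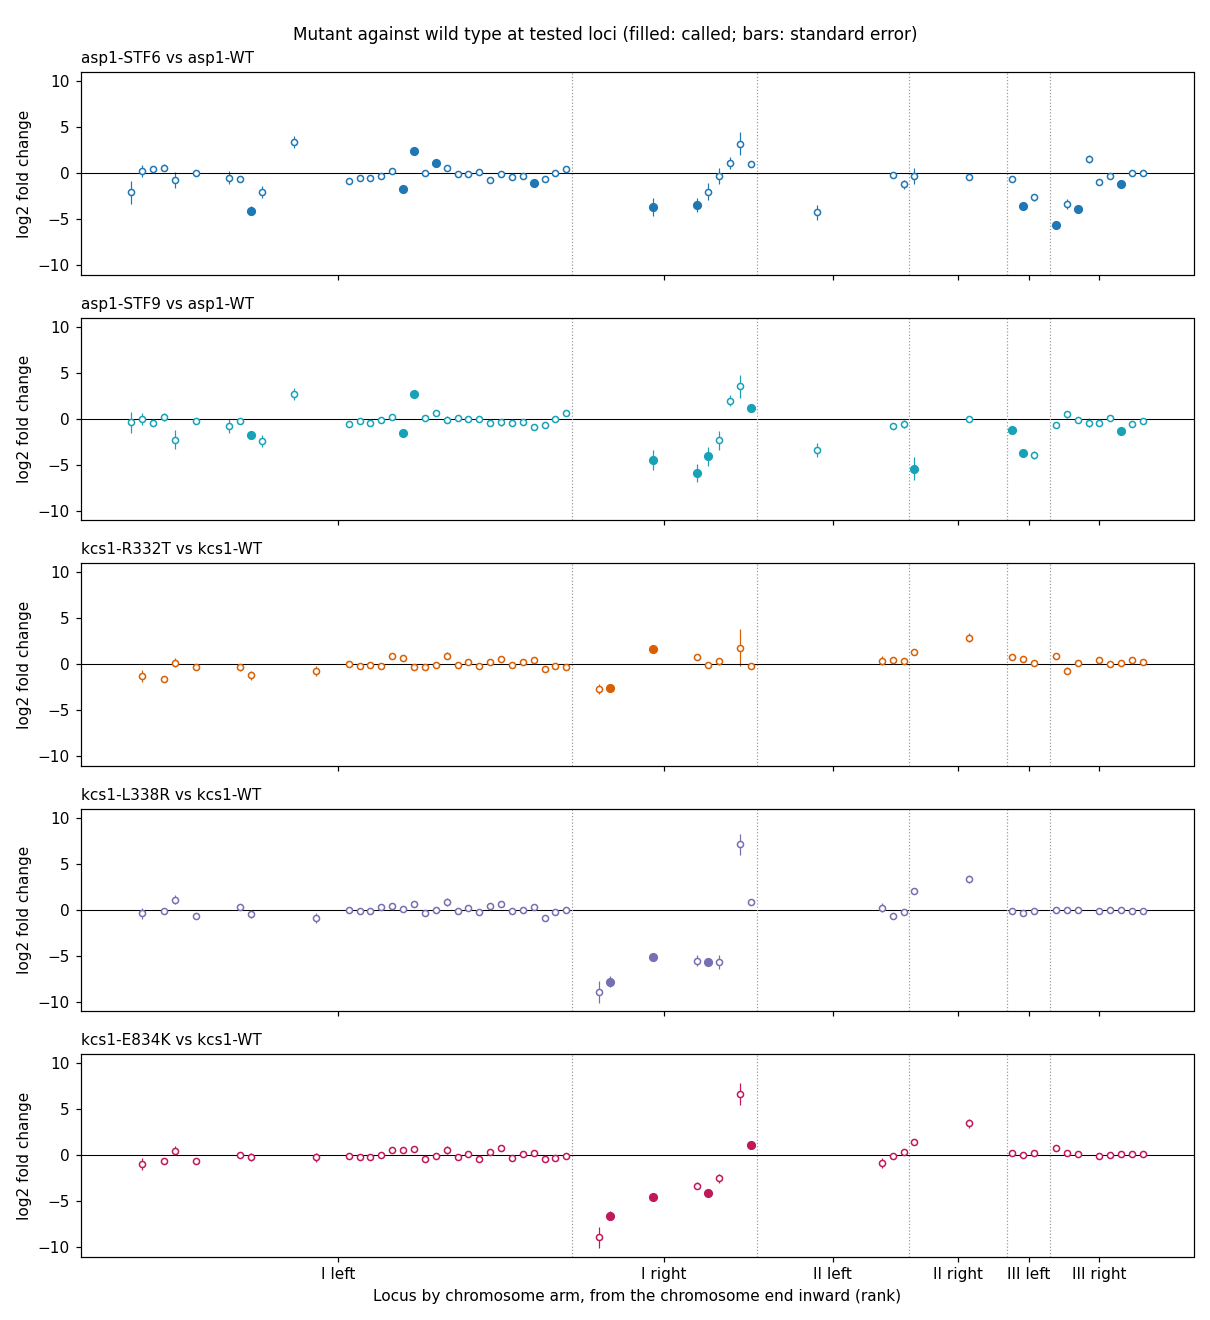
Log2 fold change (y axis, with its standard error as a bar) of each tested locus in the 5 mutant against wild-type comparisons, placed by chromosome arm and rank from the chromosome end (x axis). Filled points were called; in the kcs1 panels all filled points lie on the right arm of chromosome I, and in the STF panels they are spread over several arms.

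Several loci on the right arm of chromosome I differed widely, between groups and within them. gdt1 (SPAC186.05c) codes for a GDT1-like protein, a family known in budding yeast for calcium and manganese transport in the Golgi. It had 2229, 2685 and 2225 normalized counts in asp1-WT replicates 1, 2 and 3. In asp1-STF6 it had 38.0, 52.1 and 1690, and in asp1-STF9 70.6, 281 and 63.7. STF6 replicate 3 thus lay near the wild-type libraries while its other replicates were far below them, and the STF9 libraries were all under the wild-type range. The log2 fold change was -4.07 in STF9 (SE 1.07, adjusted p = 0.0112 by edgeR's quasi-likelihood test). In STF6 it was -1.99 ± 0.95 SE (adjusted p = 0.139 by the same edgeR test). Without STF6 replicate 3 it was -5.76 (adjusted p = 3.49e-07 by edgeR). As that library was singled out for its value at gdt1, the fit without it is no test of a fall. Same-numbered STF6 and asp1-WT libraries deviated together across loci, but not at gdt1, where replicate 3 was the highest of STF6 and the lowest of asp1-WT. With the replicate number as a block, the STF6 log2 fold change was -2.91 (adjusted p = 0.0168 by edgeR). That block also spanned STF9, whose libraries did not pair with asp1-WT, so this p does not settle the STF6 result. The STF9 call was lost under a robust dispersion fit (adjusted p = 0.0884) and without STF9 replicate 1 (log2 fold change -3.74, adjusted p = 0.0570).

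In YES medium gdt1 split by group. It had 2937, 3280 and 2913 normalized counts in kcs1-WT and 3057, 3031 and 2971 in R332T. In L338R it had 41.6, 62.2 and 71.2, and in E834K 42.1, 260 and 214. The wild-type and R332T libraries overlapped, and those of L338R and E834K all lay under 300. gdt1 fell 52.0-fold in L338R (log2 fold change -5.70 ± 0.37 SE, adjusted p = 1.02e-07 by edgeR) and 17.5-fold in E834K (log2 fold change -4.13 ± 0.32 SE, adjusted p = 5.76e-07 by edgeR). In R332T the log2 fold change was -0.01 ± 0.25 SE (adjusted p = 0.976 by edgeR).

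SPAC186.06, an isomerase gene that adjoins gdt1 in the annotation, was low in the libraries where gdt1 was low. Its normalized counts were 258, 239 and 242 in asp1-WT, against 1.09, 1.04 and 62.9 in STF6 and 4.04, 5.91 and 1.45 in STF9. STF6 replicate 3 was again the highest of its group, here still under every wild-type library. SPAC186.06 was called lower in STF6 (log2 fold change -3.42 ± 0.73 SE, adjusted p = 0.00363 by edgeR) and in STF9 (log2 fold change -5.89 ± 0.95 SE, adjusted p = 4.89e-04). In the kcs1 experiment it had 67.5, 68.1 and 70.0 in kcs1-WT, compared with 110, 149 and 114 in R332T, 1.04, 0 and 3.05 in L338R and 1.03, 13.8 and 4.83 in E834K. The groups of high libraries did not overlap the groups of low ones. Its means of 68.5 and less in kcs1-WT, L338R and E834K were under the minimum for a call against kcs1-WT, though its adjusted p was 1.37e-05 in L338R and 8.81e-05 in E834K by edgeR. SPAC186.04c, the next gene inward from gdt1, whose product is uncharacterized, had 24.7, 36.7 and 62.3 in asp1-WT, against 3.26, 4.17 and 89.8 in STF6 and 8.07, 14.8 and 0 in STF9. STF6 replicate 3 was here higher than the wild-type libraries, and the locus was not called.

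SPAC750.01, an aldo/keto reductase gene with 67.5% of its windows unique, separated the asp1-WT libraries by their strain label. It had 3.09 normalized counts in the BS216 library and 396 and 287 in the AS478 libraries, against 6.52, 10.4 and 35.0 in STF6 and 6.05, 12.8 and 11.6 in STF9. The BS216 library lay under all 6 mutant libraries and the AS478 libraries above them. SPAC750.01 was called lower in STF6 (log2 fold change -3.66 ± 0.996 SE, adjusted p = 0.0149 by edgeR) and in STF9 (log2 fold change -4.48 ± 1.10 SE, adjusted p = 0.00761 by edgeR). Against the AS478 libraries alone, the changes were -4.24 and -5.07 (adjusted p = 6.45e-05 and 3.42e-05). A fit against BS216 alone was not run. The STF6 call was lost without asp1-WT replicate 2 (log2 fold change -3.0, adjusted p = 0.0584), without STF6 replicate 2 (-3.40, 0.0589) and under a robust dispersion fit (adjusted p = 0.0818), and the STF9 call under the robust fit (adjusted p = 0.0511).

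Among the kcs1 groups SPAC750.01 moved in both directions. It had 158, 145 and 211 normalized counts in kcs1-WT, compared with 547, 586 and 548 in R332T, 7.27, 1.07 and 6.10 in L338R and 8.22, 6.04 and 8.45 in E834K. No library of R332T, L338R or E834K overlapped the kcs1-WT range. The gene rose 3.26-fold in R332T (log2 fold change 1.71 ± 0.17 SE, adjusted p = 9.07e-06 by edgeR) and fell 34.5-fold in L338R (log2 fold change -5.11 ± 0.30 SE, adjusted p = 4.12e-08) and 22.7-fold in E834K (log2 fold change -4.50 ± 0.27 SE, adjusted p = 7.11e-08). SPAC977.14c, an aldo-keto reductase gene on the other arm, holds 32.5% of the windows of SPAC750.01. It had a mean of 6591 ± 728 normalized counts (SD, n = 3) in kcs1-WT, against 12685 ± 458 in R332T, where SPAC750.01 rose. Where SPAC750.01 fell, it had 9057 ± 2006 in L338R and 9983 ± 406 in E834K, means that were also above kcs1-WT. The part of shared reads in the R332T value was not tested.

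ftm4 (SPAC750.05c) codes for a transmembrane protein of a repeated family and has 7.79% unique windows. In asp1-WT it had 3.09, 377 and 10.1 normalized counts, while the 6 STF libraries lay between 0 and 3.59, and the filter on low counts left it untested there. In kcs1-WT it had 110, 101 and 108, in R332T 11.6, 14.9 and 26.3, in L338R 1.04, 0 and 0, and in E834K 0, 2.59 and 0. The kcs1-WT libraries agreed closely, and every mutant library lay under them. ftm4 fell 6.07-fold in R332T (log2 fold change -2.60 ± 0.31 SE, adjusted p = 3.23e-05 by edgeR). The 3 L338R libraries held 1 count and the 3 E834K libraries 3, against 327 in kcs1-WT. The ratios of these sums, scaled for depth, were 306 (exact 95% interval 54.5 to 12112, counting error only) for L338R and 105 (35.5 to 511) for E834K, and both calls passed (adjusted p = 4.90e-07 and 6.47e-07 by edgeR). SPAC750.06c, which lies between ftm4 and the chromosome end and belongs to the repeated set described above, had 56.9, 66.1 and 55.8 in kcs1-WT and 0 counts in all 6 L338R and E834K libraries. In R332T it had 0, 11.4 and 16.9.

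**Figure D3:**
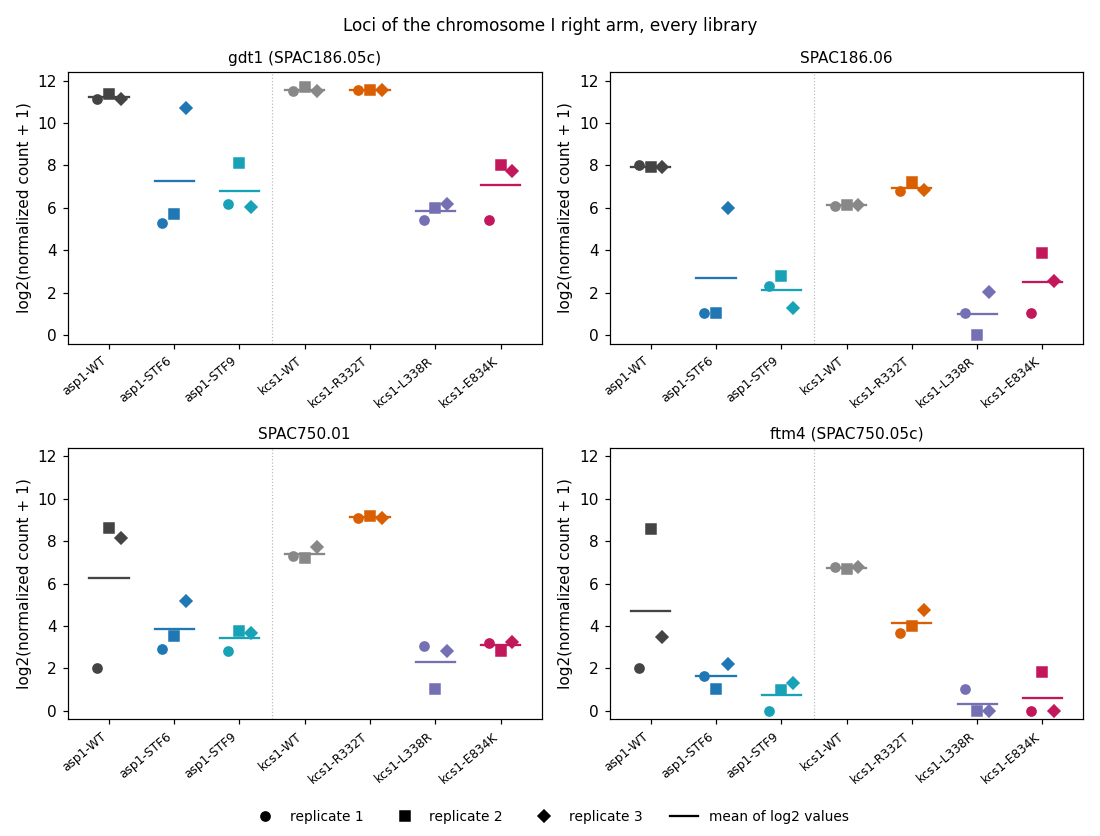
Log2(normalized count + 1) of gdt1, SPAC186.06, SPAC750.01 and ftm4 in each library (symbols mark replicates 1 to 3, lines the mean of the log2 values), by group. At gdt1 asp1-STF6 replicate 3 sits with the wild-type libraries at 1690 normalized counts while replicates 1 and 2 are at 38.0 and 52.1, and at SPAC750.01 asp1-WT replicate 1 is at 3.09.

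pfl9 (SPAC186.01), the innermost member on this arm, codes for a cell surface glycoprotein of the DIPSY family and ran the other way. It had 78.1, 74.3 and 108 normalized counts in asp1-WT, against 201, 216 and 101 in STF6 and 183, 180 and 235 in STF9. STF6 replicate 3 was the lowest mutant library and lay inside the wild-type range. pfl9 rose 2.29-fold in STF9 (log2 fold change 1.19 ± 0.27 SE, adjusted p = 0.00498 by edgeR) and had a fold of 1.98 in STF6 (adjusted p = 0.0154), just under the threshold. Without STF6 replicate 3 or asp1-WT replicate 3 it passed in STF6, with log2 fold changes of 1.22 and 1.12. These were the lowest STF6 and the highest asp1-WT library at pfl9. In the kcs1 experiment it had 88.7, 88.4 and 83.2 in kcs1-WT, compared with 54.2, 103 and 77.9 in R332T, 115, 192 and 160 in L338R and 208, 152 and 208 in E834K. The L338R and E834K libraries all exceeded those of kcs1-WT, and pfl9 rose 2.17-fold in E834K (log2 fold change 1.12 ± 0.23 SE, adjusted p = 0.00247 by edgeR), with a fold of 1.79 in L338R (adjusted p = 0.0171).

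The kcs1 alleles differed from each other at these same loci. R332T against L338R gave 3 members higher (0.394% of all tested loci) and 0 lower (0.443%), with 8 lower at an unadjusted p under 0.05 by edgeR and 0 by DESeq2. R332T against E834K gave 3 higher (0.197%) and 1 lower (0.427%). The higher ones were gdt1, SPAC186.06 and SPAC750.01 in both, with log2 differences of 5.69, 6.36 and 6.81 against L338R and 4.12, 4.13 and 6.21 against E834K, and the lower one was pfl9. These comparisons share the R332T libraries. Between L338R and E834K no member was called higher (0.00%) or lower (0.00%), by edgeR or DESeq2, and 1 was higher and 5 lower at an unadjusted p under 0.05. gdt1 had a log2 difference of -1.57 there (SE 0.44, adjusted p = 0.296 by edgeR), and -2.03 (adjusted p = 5.23e-05) without E834K replicate 1. That library was singled out for its value of 42.1, which lay apart from 260 and 214 and inside the L338R range of 41.6 to 71.2. The fit without it is therefore no test of a difference.

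tlh2, a helicase gene with 6.77% unique windows, differed widely over the STF libraries. It had 38.7, 1255 and 52.2 normalized counts in asp1-WT, against 330, 391 and 381 in STF6 and 8.07, 11.8 and 11.6 in STF9. asp1-WT replicate 2 lay above every STF6 library and the other wild-type libraries below them, whereas the STF9 libraries lay below all others. tlh2 was called lower in STF9 (log2 fold change -5.41 ± 1.24 SE, adjusted p = 0.00534 by edgeR) and not in STF6 (log2 fold change -0.28 ± 0.85 SE, adjusted p = 0.841). Without asp1-WT replicate 2 the STF6 value turned to 3.02 (adjusted p = 2.91e-06 by edgeR), and with the replicate block it was 1.10 (adjusted p = 0.230). The STF9 value without that library was -2.11 (adjusted p = 2.92e-04), under the count minimum. As asp1-WT replicate 2 was singled out for its value at tlh2, the fits without it are no tests of either mutant. The robust dispersion fit also lost the STF9 call (adjusted p = 0.0554). STF9 against STF6, which does not use the wild type's level, gave a log2 difference of -5.13 ± 1.25 SE (adjusted p = 0.212 by edgeR) with no overlap of the libraries, and an adjusted p of 9.55e-07 when these groups were fitted without asp1-WT.

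The libraries of the kcs1 experiment agreed better at tlh2. It had 28.9, 9.15 and 25.5 normalized counts in kcs1-WT, compared with 59.0, 45.4 and 56.9 in R332T, 93.5, 77.2 and 92.5 in L338R and 56.5, 75.1 and 43.5 in E834K. All 9 mutant libraries exceeded the 3 wild-type ones, with log2 differences of 1.32, 2.03 and 1.46 (adjusted p = 0.00570, 3.11e-04 and 0.00343 by edgeR), but the means of 53.8, 87.7 and 58.4 stayed under the minimum for a call. tlh1, the near-identical copy at the left end of chromosome I, had at most 35.7 normalized counts, in asp1-WT replicate 2, and was not tested.

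Other loci of these ends were high in the same wild-type library. The pseudogene SPBCPT2R1.07c had 0.773, 370 and 0 normalized counts in asp1-WT, and at most 10.8 in any other library. The pseudogene SPAC212.09c, which shares most of its windows, had 0.773, 132 and 0 in asp1-WT, against 1.09, 16.7 and 12.6 in STF6 and 44.4, 18.7 and 37.7 in STF9, and at most 4.73 in the kcs1 libraries. Replicate 2 was the highest library at both. SPAC212.06c, annotated as a DNA helicase-like protein, had 2.32, 124 and 8.24 in asp1-WT, against 19.6, 32.3 and 30.5 in STF6 and 7.06, 11.8 and 8.69 in STF9. SPAC212.09c and SPAC212.06c were not called in either STF mutant, and SPBCPT2R1.07c was left untested by the filter on low counts. SPBCPT2R1.04c did not share the pattern, with 117, 101 and 51.3 in asp1-WT.

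**Figure D4:**
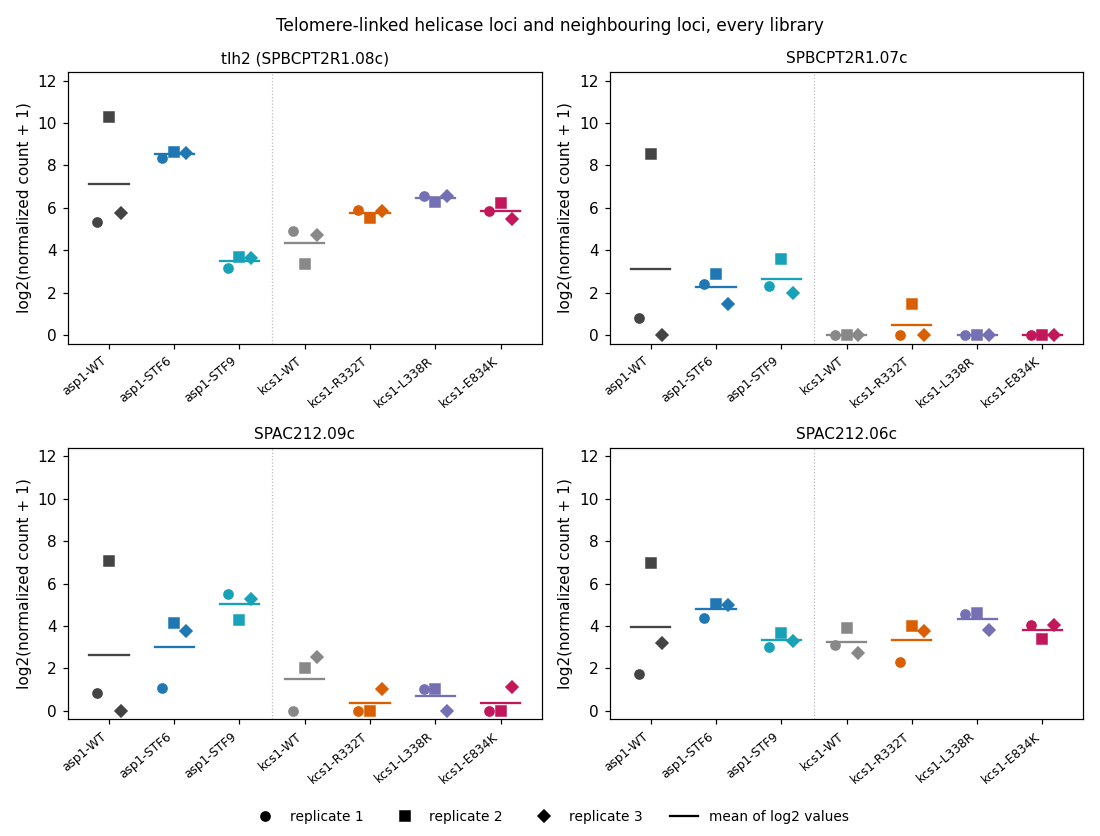
Log2(normalized count + 1) of tlh2, SPBCPT2R1.07c, SPAC212.09c and SPAC212.06c in each library (symbols mark replicates 1 to 3, lines the mean of the log2 values), by group. asp1-WT replicate 2 is the highest library in all 4 panels, at 1255, 370, 132 and 124 normalized counts.

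Spread within groups was counted over all loci. A locus was taken as widely spread in a group when its highest library had 100 or more normalized counts and at least 4 times the lowest, with each library floored at 3 counts. In asp1-WT this held for 6 of the 41 members at that level, against 0.170% of all 5291 loci. They were SPAC212.06c, SPAC212.09c, SPAC750.01, ftm4, SPBCPT2R1.07c and tlh2, and they made up 6 of the 9 such loci in the genome. SPAC212.09c and SPBCPT2R1.07c share 97.2% of their windows, and 21.8% of those of SPAC212.06c are unique. The 6 may therefore not be separate sources of reads. At 5 of the 6 loci replicate 2 stood above both other libraries, and replicate 3, which carries the same AS478 label, did not follow it. At SPAC750.01 the BS216 library stood below both others. gdt1 was the 1 such member in STF6 (0.203% of all loci), in STF9 (0.282%) and in E834K (0.0194%), where it was the 1 such locus of 5146. No member was widely spread in kcs1-WT (0.0395%), R332T (0.00%) or L338R (0.0392%), a count to which no test applies. Lowering the level to 20 gave 11 members in asp1-WT, 5 in STF6 and, for STF9, 3. No share of all loci is set beside these counts, so they do not show a spread particular to the members.

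On the right arm of chromosome III the STF mutants differed from each other. SPCC569.01c, a gene of an uncharacterized protein with 14.2% unique windows, had 220, 257 and 343 normalized counts in asp1-WT, against 4.34, 7.29 and 5.39 in STF6 and 189, 165 and 172 in STF9. SPCC569.03, also uncharacterized and with 77.5% unique windows, had 160, 173 and 264, then 16.3, 17.7 and 7.19, then 192, 186 and 191. At both loci the STF6 libraries lay far under all others and the replicates of each group lay close together. SPCC569.01c fell 47.1-fold in STF6 (log2 fold change -5.56 ± 0.28 SE, adjusted p = 1.89e-08 by edgeR) and SPCC569.03 fell 14.6-fold (log2 fold change -3.87 ± 0.31 SE, adjusted p = 1.20e-06). In STF9 the log2 fold changes were -0.64 and -0.07 (adjusted p = 0.0212 and 0.847).

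Tested directly, STF9 exceeded STF6 at these loci. The log2 differences were 4.92 at SPCC569.01c (SE 0.28, adjusted p = 1.29e-06 by edgeR) and 3.80 at SPCC569.03 (SE 0.31, adjusted p = 4.04e-05). They were the 2 members called higher in STF9 against STF6, and the 2 such loci among all 6144 tested (0.0326%). DESeq2 gave no adjusted p for either of them in this comparison. No member was called lower there (0.00%), by edgeR or DESeq2, with 9 lower at an unadjusted p under 0.05. SPCC569.02c, which lies between them, had 14.7, 28.0 and 21.1 in asp1-WT, against 1.09, 1.04 and 3.59 in STF6 and 29.3, 39.4 and 18.8 in STF9. STF6 was again the lowest group, with a log2 difference of 3.81 between STF9 and STF6 (adjusted p = 0.0156 by edgeR) at means under the count minimum. In the kcs1 experiment SPCC569.01c lay between 88.3 and 285 and SPCC569.03 between 118 and 337, and neither was called.

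At the left end of chromosome III, SPCP20C8.02c fell in both STF mutants. This gene of an uncharacterized protein had 124, 136 and 179 normalized counts in asp1-WT, against 16.3, 11.5 and 9.88 in STF6 and 14.1, 9.85 and 8.69 in STF9. The wild-type libraries, of both strain labels, lay above all 6 mutant libraries. The gene fell 11.7-fold in STF6 and 13.1-fold in STF9 (-3.54 ± 0.29 SE and -3.71 ± 0.30 SE on the log2 scale, adjusted p = 1.80e-06 and 1.55e-06 by edgeR). SPCP20C8.01c, which lies closer to the chromosome end and shares 76.4% of its windows with SPCC569.01c, had 172, 240 and 244 in asp1-WT, against 110, 131 and 192 in STF6 and 84.7, 103 and 101 in STF9. It fell 2.27-fold in STF9 (adjusted p = 0.00183 by edgeR), while the STF6 libraries overlapped those of the wild type (log2 fold change -0.59, adjusted p = 0.0627). The pseudogene SPCP20C8.03 had 59.6, 42.5 and 85.2 in asp1-WT, at most 11.9 in STF6 and at most 5.91 in STF9, under the count minimum. These 3 loci were not called in the kcs1 mutants.

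**Figure D5:**
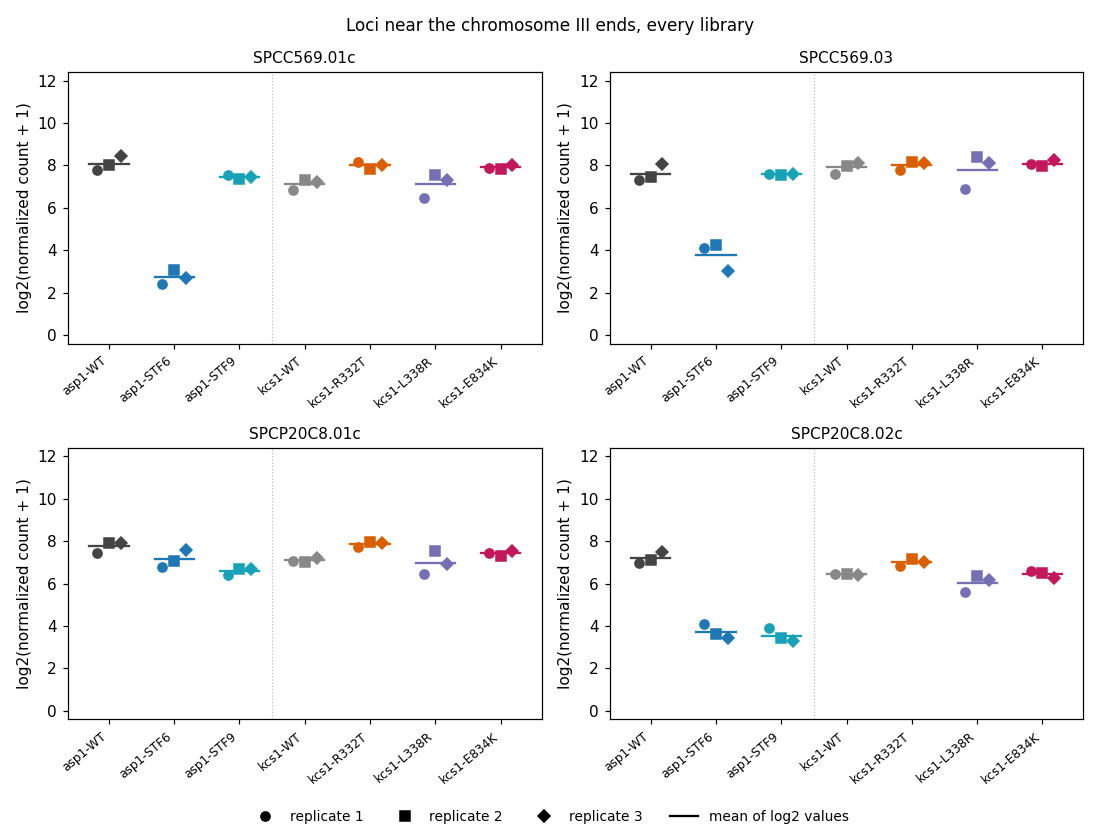
Log2(normalized count + 1) of SPCC569.01c, SPCC569.03, SPCP20C8.01c and SPCP20C8.02c in each library (symbols mark replicates 1 to 3, lines the mean of the log2 values), by group. The STF6 libraries lie between 4.34 and 17.7 normalized counts at SPCC569.01c and SPCC569.03, and both STF mutants lie between 8.69 and 16.3 at SPCP20C8.02c.

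Farther from the ends, several enzyme genes were called in the STF mutants. dak2 (SPAC977.16c), the dihydroxyacetone kinase gene, had 370, 508 and 388 normalized counts in asp1-WT, against 2154, 2668 and 2076 in STF6 and 3244, 3327 and 1972 in STF9. No mutant library overlapped the wild type, and dak2 rose in both mutants (log2 fold changes 2.45 ± 0.19 SE and 2.76 ± 0.19 SE, adjusted p = 1.16e-06 and 4.35e-07 by edgeR). In the kcs1 experiment it had log2 fold changes of -0.31, 0.61 and 0.65 in R332T, L338R and E834K, under the fold threshold. dgc1 (SPAC5H10.01), a D-glutamate cyclase gene, had 360, 318 and 396 in asp1-WT, against 895, 707 and 822 in STF6 and 581, 522 and 578 in STF9. The groups did not overlap, and dgc1 rose 2.26-fold in STF6 (adjusted p = 3.08e-05 by edgeR) and had a fold of 1.57 in STF9 (adjusted p = 0.00276).

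Other enzyme genes fell. SPAC977.15, of the dienelactone hydrolase family, had 254, 335 and 409 normalized counts in asp1-WT, against 68.4, 134 and 111 in STF6 and 109, 124 and 123 in STF9. SPCC569.07, an aromatic aminotransferase gene, had 1938, 1862 and 1999, then 782, 859 and 1031, then 786, 717 and 795. SPAC5H10.10, an NADPH dehydrogenase gene, had 1965, 1892 and 1838, then 842, 941 and 899, then 988, 936 and 1104. At all 3 every mutant library lay under every wild-type one. SPAC977.15 fell 3.17-fold and 2.80-fold in STF6 and STF9 and SPCC569.07 2.17-fold and 2.52-fold, all with adjusted p of 4.58e-04 or less by edgeR, and SPAC5H10.10 fell 2.12-fold in STF6 (adjusted p = 4.76e-06) with a fold of 1.88 in STF9 (adjusted p = 2.23e-05). No kcs1 mutant had a call at any of these.

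SPAC977.18, an uncharacterized gene in the repeated left end of chromosome I with 17.7% unique windows, had 88.2, 145 and 85.2 normalized counts in asp1-WT, against 1.09, 4.17 and 12.6 in STF6 and 32.3, 39.4 and 18.8 in STF9. The groups did not overlap. The log2 fold changes were -4.06 ± 0.50 SE and -1.78 ± 0.41 SE (adjusted p = 5.96e-05 and 0.00534 by edgeR). The asp1-WT mean of 106 passed the count minimum through replicate 2, and without it neither call stood.

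By product, the called loci were of several kinds. Of the 27 loci of uncharacterized or other products, 14 were tested in the STF experiment, and 4 were lower in STF6 and 3 in STF9, where 1.76% and 1.87% of all tested loci were called lower. Of the 12 oxidoreductase and dehydrogenase genes, 7 were tested there, and 2 were lower in STF6 and 1 in STF9. Of the 16 genes of kinases, transferases, lyases and isomerases, 12 were tested, with 2 higher and 2 lower in STF6 and 1 higher and 2 lower in STF9, against shares of 2.51% and 2.10% of all tested loci called higher. Of the 5 hydrolase genes 3 were tested, and SPAC977.15 was lower in both mutants. Of the 5 cell surface glycoprotein genes and the 3 helicase genes, 3 and 2 were tested, and pfl9 and tlh2 were called in STF9. Of the 8 genes of the repeated transmembrane and Vel1p families 3 were tested, and the 1 transcription factor gene was also tested, with no call in either STF mutant. Of the 8 transporter and channel genes, which include the sodium and proton antiporter gene nhe1 and the fluoride channel gene fex1, 7 were tested and gdt1 was the 1 called lower in STF9. Most of the 11 pseudogenes were too weakly expressed to test, with 4 tested in the STF experiment and 3 in the kcs1 experiment. The tested members that were not called numbered 45 in each STF mutant, and 34 of them in STF6 and 37 in STF9 had a log2 fold change between -1 and 1. In R332T, L338R and E834K, 43 of 50, 42 of 49 and 42 of 48 uncalled members lay within that range.

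Genes that act in silencing and at telomeres were read in the same fits, from a list of 42 symbols that held the H3K9 methyltransferase complex, RNA interference, histone deacetylase and chaperone genes, the antisilencing gene epe1 and the shelterin genes. These symbols gave 40 genes, with no separate gene for hir1 and cia1 beside hip1 and asf1. All 40 were tested, and their log2 fold changes in the 5 comparisons lay between -0.65 and 0.61, under the fold threshold. At the adjusted p alone, 2 were higher and 3 lower in STF6, where 16.4% and 11.8% of all tested loci were higher and lower by the same rule. In STF9, 0 were higher (18.1%) and 10 lower (15.3%). In R332T, 1 was higher (14.3%) and 3 lower (19.9%), in L338R 0 were higher (10.6%) and 8 lower (11.7%), and in E834K 0 were higher (12.3%) and 5 lower (15.8%). The genes higher in STF6 were the shelterin gene rap1, at 0.61 on the log2 scale (adjusted p = 0.0292 by edgeR), and clr1, a gene of the SHREC deacetylase complex, at 0.36 (adjusted p = 0.0184). The gene higher in R332T was poz1, also of shelterin, at 0.55 (adjusted p = 0.0170). clr2, of the SHREC deacetylase complex like clr1, had -0.60 in STF6, -0.43 in STF9, -0.35 in L338R and -0.29 in E834K (adjusted p = 0.00114, 0.00868, 0.00732 and 0.0158 by edgeR). clr4, the H3K9 methyltransferase gene, had -0.38 in L338R and -0.37 in E834K (adjusted p = 0.0138 and 0.0125 by edgeR), but -0.03 in STF6 and -0.02 in STF9 (adjusted p = 0.868 and 0.890). epe1 had -0.53, -0.34 and -0.43 in R332T, L338R and E834K (adjusted p = 3.07e-04, 0.00924 and 0.00168), and rik1, a subunit gene of the Clr4 complex, -0.48 in STF6 and -0.41 in STF9 (adjusted p = 0.00289 and 0.00685). The list's median log2 fold change was -0.03, -0.30, 0.09, -0.22 and -0.04 in STF6, STF9, R332T, L338R and E834K, against 0.05, -0.03, 0.01, -0.04 and 0.02 over all tested loci. The part of these differences in the levels of the subtelomeric loci was not tested.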

How the data were processed

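The authors deposited counts, as whole numbers of reads per annotated locus for each library. Per the submitters' processing notes and the study's methods, paired reads of 51 bases were aligned with HISAT2 2.1.0 to ASM294v2, converted with SAMtools and counted over exons with HTSeq 0.10.0. The strand setting and the treatment of reads with several matches are not given in the sources used here. The labels name the TruSeq stranded kit and the methods a NEB directional kit. The authors' DESeq2 comparison tables, which hold fold changes and p-values, were not used.

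The STF and the kcs1 tables were fitted separately, each with all of its libraries, in R 4.3.3 with edgeR 4.0.16 (filterByExpr, TMM, quasi-likelihood F test, prior count 0.125, Benjamini-Hochberg adjustment), with DESeq2 1.42.0 as an alternative. The fits were tested on simulated data. Names, exon lengths, gene order and window uniqueness came from ASM294v3, in which all 96 identifiers matched. The members and the gene lists were chosen with earlier results of these data known. Loci described by library are those called against a wild type, those widely spread in a group and the highest of each clone, with others named for their place beside them or for their shared reads. P-values rest on the spread between the 3 replicate cultures of each group, estimated per locus over all groups of an experiment. Unless the compared groups were fitted alone, a p thus also carries the spread of groups outside its comparison. In asp1-WT that spread includes both strain labels.

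Replicates of a group were no duplicates (chi-square per degree of freedom of 3.24 or more). Same-numbered libraries deviated together in 3 of 3 pairs for asp1-WT with STF6 (correlations across loci of 0.53, 0.25 and 0.51) and for kcs1-WT with L338R (0.36, 0.15 and 0.12), and not in the other comparisons. Alternatives were other size factors, DESeq2, no filter on low counts, a robust dispersion fit, the compared groups alone, a replicate block, no count minimum and each replicate left out.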

Additional observations from a re-analysis of the deposited data

How the results depend on the processing

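The choice that moved most counts was the minimum of 100 normalized counts. Without it, 4 members were higher and 13 lower in STF6, and 5 higher and 12 lower in STF9. In the kcs1 experiment the counts higher and lower became 3 and 3 in R332T, 3 and 6 in L338R, 4 and 6 in E834K, 7 and 2 in R332T against L338R, and 6 and 3 in R332T against E834K. No share of all tested loci called without the minimum was set beside these counts, so they do not show a change particular to the members. For STF9 against STF6, DESeq2 gave 0 higher, and fitting these groups alone gave 1 lower (tlh2). The replicate block gave 1 lower in STF9 against STF6 (tlh2) and 10 lower in STF6 against asp1-WT (gdt1 added), and it changed no other count. Same-numbered libraries did not pair in STF9 against STF6. Counting loci whose highest library had 20 or more, in place of 100, gave 11, 5 and 3 widely spread members in asp1-WT, STF6 and STF9, and 15 cases of a library standing apart from the others of its group. These counts too have no share of all loci beside them.

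Leaving out each replicate in turn gave 0 to 2 lower in STF9 against STF6, 1 to 2 higher in R332T, 0 to 1 higher in L338R, 3 to 6 higher and 0 to 1 lower in R332T against L338R, 1 to 2 lower in R332T against E834K and 0 to 1 lower in L338R against E834K. Leave-one-out counts of lower calls ranged from 7 to 11 in STF6 and from 7 to 10 in STF9. Of the values for single loci under the alternatives, 606 kept their side of the threshold, 22 became calls, 10 lost a call and none of the called ones changed sign. DESeq2 gave no adjusted p for SPAC186.06 in STF6, for gdt1, SPAC186.06 and tlh2 in STF9, and for SPCC569.01c and SPCC569.03 in STF9 against STF6, and these 6 values are in none of the counts. The uncalled tlh2 difference between STF6 and asp1-WT turned from -0.28 to 3.02 without asp1-WT replicate 2. The causes of these changes were not tested. A locus with few unique windows and few counts gives no estimate of its own copy, whatever the depth.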

Other observations

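Several loci with means under the count minimum had different values between groups. They were named because of the values seen, and as some of their groups held few counts or none, no p is given. SPAC186.02c, a hydroxyacid dehydrogenase gene whose windows are all unique, had 0 counts in the 3 kcs1-WT libraries and 0, 0.874 and 0 normalized counts in R332T, against 27.0, 7.50 and 17.3 in L338R and 12.3, 9.49 and 16.9 in E834K. In the STF experiment it had 2.32, 0 and 0 in asp1-WT, 15.2, 13.5 and 0 in STF6, and 21.2, 8.86 and 2.90 in STF9, with the 0 in STF6 replicate 3, where gdt1 was high.

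SPBCPT2R1.04c, of the repeated set on several chromosome ends, had 0, 5.08 and 6.62 normalized counts in kcs1-WT, against 26.1, 35.0 and 29.5 in R332T, 50.9, 41.8 and 31.5 in L338R, and 42.1, 36.3 and 59.2 in E834K. All 9 mutant libraries lay above the wild type.

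SPAC977.05c, a gene of a Vel1p domain protein with few unique windows, had 3.09, 3.86 and 0 in asp1-WT, 32.6, 18.8 and 26.9 in STF6, and 17.1, 19.7 and 8.69 in STF9. The transporter gene SPBC1348.05, with 2.90% of its windows unique, ran the other way. It had 20.9, 14.5 and 25.6 in asp1-WT, 0, 0 and 2.69 in STF6, and 4.04, 0 and 1.45 in STF9.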
